A study of Mus musculus with 6 samples.

Results

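The 10 genes described here encode the LPS coreceptors, the adaptors that carry a Toll-like receptor signal into the cell, and the IRAK kinases that pass it on. They were chosen by symbol and matched to Ensembl identifiers through GENCODE: the coreceptor genes Cd14 and Ly96, the adaptor genes Myd88, Tirap, Ticam1 and Ticam2, and the kinase genes Irak4, Irak1, Irak2 and Irak3. All 10 were found among the 25044 genes of the count table, and all 10 had enough reads to be tested. RNA was sequenced from peritoneal macrophages of wild type C57BL/6 mice aged 8 weeks, drawn into the cavity by thioglycollate, an irritant, and collected 3 days after its injection. Cells that stuck to plastic within 1 h were cultured for a further 24 h. The trametinib group (3 libraries) then received 100 nM trametinib, an inhibitor of the ERK-activating kinases MEK1 and MEK2, and the vehicle group (3 libraries) received DMSO. Both groups were given LPS at 100 ng/ml 2 h later and kept with it for 12 h. No culture lacked LPS, so the effect of LPS itself was not measured. The labels give 3 mice for the study and do not tie libraries to animals, and the p values speak only of the spread among these 6 libraries, which may be technical in part.

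LPS is handed by CD14 to the complex of TLR4 and MD-2, the protein of Ly96, at the cell surface. From there the signal splits. TIRAP brings MyD88 to the receptor, MyD88 assembles IRAK4 with IRAK1 or IRAK2, and this complex leads through TRAF6 to NF-kappaB and the MAP kinases, ERK among them. After CD14 has helped the receptor into endosomes, TRAM, the protein of Ticam2, brings in TRIF, the protein of Ticam1, which leads through TBK1 to IRF3 and interferon beta. IRAK-M, the protein of Irak3, is an IRAK family member known in macrophages for restraining this signalling.

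Of the 6 genes counted with the MyD88 branch 3 fell with trametinib and 3 did not pass the test. The 3 that fell include Irak3, whose product is known for restraining this signalling. Of the 2 genes of the TRIF branch Ticam1 rose and Ticam2 did not pass, and the coreceptor gene Cd14 rose. No test compared the branches. Irak3 fell to 93.2 ± 9.34 CPM, counts relative to scaled library size, in trametinib libraries, against 181 ± 14.3 CPM in vehicle libraries, and Tirap and Irak2 also fell (mean ± SD, n = 3 each). Ticam1 rose to 68.2 ± 4.97 CPM in trametinib libraries, against 47.4 ± 2.31 CPM in vehicle libraries, and Cd14 rose as well. With edgeR's quasi-likelihood test and an adjusted p under 0.05 over all genes tested, 2 of the 10 genes were called higher and 3 lower, and 5 did not pass. Over the 11286 genes tested, 15.8% were called higher, 18.4% lower and 34.3% in either direction, so 5 calls among 10 genes are not read as a property of the set. The median log2 fold change of the 10 genes was −0.07, beside −0.005 over all genes tested. The libraries of the groups did not overlap in CPM for 7 of the 10 genes, 2 higher and 5 lower, against 49.3% of all genes tested (23.4% higher and 25.9% lower). With the replicate number as a block the calls were 2 higher and 5 lower, Myd88 and Irak1 joining the genes that fell, where 20.5% of all genes were called higher, 22.4% lower and 42.8% in either direction.

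Library totals ran from 17453778 to 19648467 counts. Vehicle replicate 3 stood apart: its score on the leading principal component (68.8% of the variance) was −16.2, with the trametinib libraries at 26.4 to 35.5 and the other vehicle libraries at −39.3 and −38.1. Among the 10 genes it lay outside the range of the other vehicle libraries every time. It was on the trametinib side for 7 and on the far side for 3 (Cd14, Ly96 and Irak4). Neither the share over all genes nor the count for another library is given, so these counts are not read as a property of the 10 genes. Without vehicle replicate 3 the calls were 2 higher and 5 lower, with the same genes as under the block. Of all genes tested, 19.3% were then called higher, 21.4% lower and 40.8% in either direction. That library was picked from these data for lying nearest the trametinib libraries, so these calls are no separate evidence for the blocked result. Of 9 macrophage marker genes 1 rose (Mertk) and 2 fell (Adgre1 and Msr1), and all 9 were expressed. They summed to 14486 to 16150 CPM in trametinib libraries and 15898 to 18291 CPM in vehicle libraries, with Lyz2 as the largest part. Mertk had 182 to 251 CPM in trametinib libraries and 99.2 to 106 CPM in vehicle libraries. Adgre1 had 860 to 982 CPM in trametinib libraries and 1476 to 1865 CPM in vehicle libraries. Msr1 had 51.8 to 55.5 CPM in trametinib libraries and 363 to 964 CPM in vehicle libraries. Neutrophils also carry CD14, but 10 neutrophil markers together made 4.29 to 10.6 CPM in trametinib libraries and 4.59 to 7.34 CPM in vehicle libraries, with Retnlg at 0 in every library. A list of 6 dendritic cell markers summed to 13.4 to 24.9 CPM in trametinib libraries and 2.47 to 8.48 CPM in vehicle libraries, with Ccr7 as the main part of the trametinib sums and none of its genes at 0 throughout. Markers of resident large peritoneal macrophages, 6 genes, summed to 201 to 564 CPM in trametinib libraries and 131 to 388 CPM in vehicle libraries, nearly all from Cd5l, while Gata6, the defining factor, had 1 count in 1 library. With the replicate block Ccr7 (adjusted p 0.0165, against 0.0995 without the block) and Cd5l (0.000683, against 0.481) were called higher. The part of these markers in the values below was not tested. Lists for B cells, T and NK cells, eosinophils, mast cells, and fibroblasts and mesothelium each stayed at or below 7.04 CPM in every library. The mitochondrial share of counts was 1.76% in trametinib replicate 2 and 0.717% to 0.871% in the other libraries. In bulk RNA, fewer cells expressing a gene and less of its RNA per cell cannot be told apart.

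**Figure D1:**
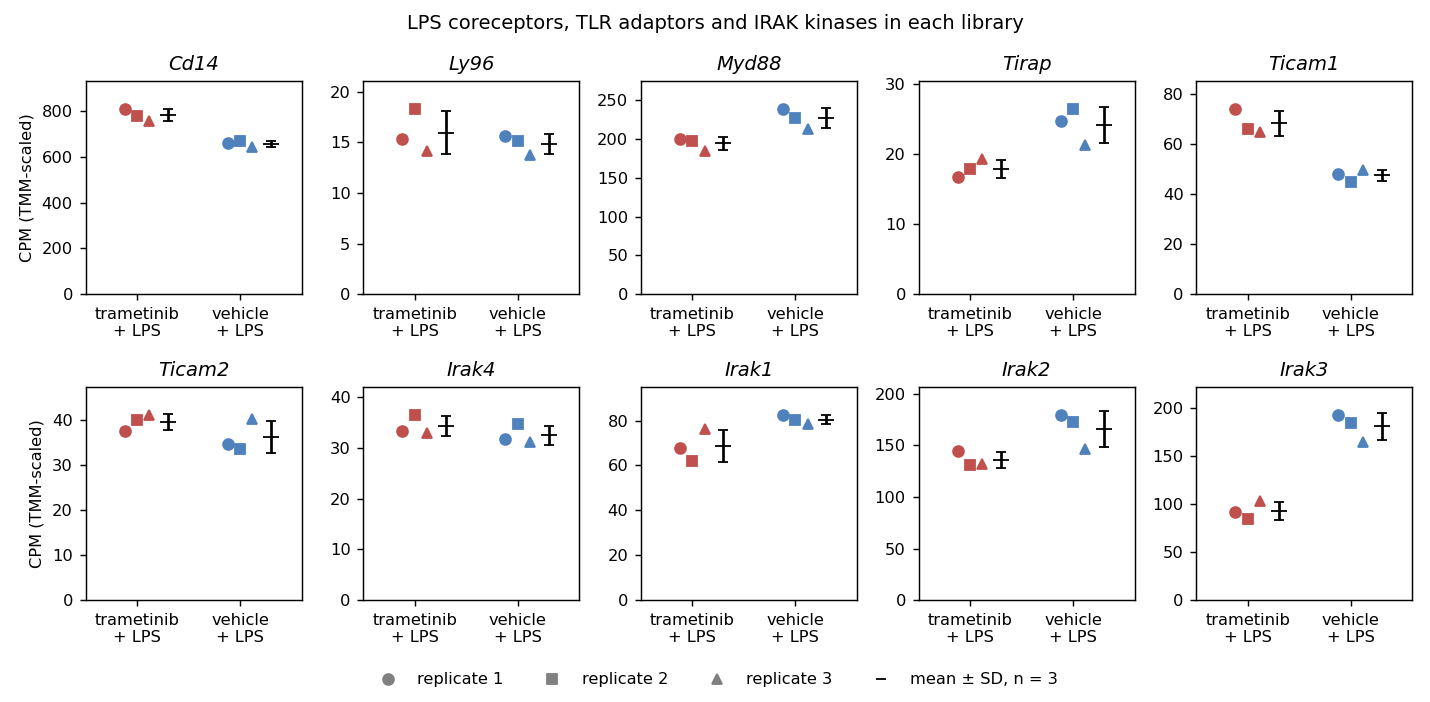
Level of each gene in each library (y axis: CPM on TMM-scaled library sizes, from 0; x axis: trametinib + LPS left, vehicle + LPS right; symbols mark the replicate number, bars the mean ± SD of 3 libraries). All 3 trametinib libraries lie above all 3 vehicle libraries for Cd14 and Ticam1 and below them for Myd88, Tirap, Irak1, Irak2 and Irak3, and the groups overlap for Ly96, Ticam2 and Irak4.

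Of the coreceptors, Cd14 was higher with trametinib and Ly96 did not pass. Cd14 (ENSMUSG00000051439, chromosome 18), which encodes the LPS-binding coreceptor, stood at 811, 780.4 and 759 CPM in trametinib replicates 1 to 3, against 660.4, 670.0 and 643 CPM in vehicle replicates 1 to 3. The lowest trametinib library lay above the highest vehicle library. The log2 fold change was 0.25 (SE 0.07, 95% interval 0.10 to 0.41, edgeR adjusted p 0.0214), a rise of 19.1%, and 49.5% of all tested genes changed by more than that in size. The call was lost when trametinib replicates 1 and 2 or vehicle replicates 1 and 2 were left out in turn (adjusted p 0.1002, 0.0601, 0.0786 and 0.0693, where the 13 alternatives together ran from 0.00372 to 0.1002), with a log2 fold change of 0.23 to 0.26 in these 4.

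Ly96 (ENSMUSG00000025779, mm10 chromosome 1, 16688051 to 16709611, plus strand), which encodes the LPS-binding subunit MD-2, had 15.3, 18.3 and 14.2 CPM in trametinib libraries, against 15.6, 15.2 and 13.7 CPM in vehicle libraries. The groups overlapped, and trametinib replicate 2 was the highest library. Its log2 fold change was 0.11 (95% interval −0.15 to 0.36, adjusted p 0.504), so a fold between 0.899 and 1.29 lies within the interval. Ly96 and Tirap had the fewest reads of the 10 genes, at 254 to 341 and 283 to 475 counts per library.

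The receptor itself moved the other way from Cd14. Tlr4, which is not among the 10 genes, had 30.2, 31.5 and 37.4 CPM in trametinib libraries, against 55.5, 61.7 and 53.2 CPM in vehicle libraries, with no overlap (log2 fold change −0.78, SE 0.10, adjusted p 0.000755). Per length, in TPM, which scales counts by exon length and depth, the ratio of Cd14 to Tlr4 was 86.2, 79.5 and 65.1 in trametinib libraries and 38.2, 34.8 and 38.7 in vehicle libraries. The ratio of Ly96 to Tlr4 was 2.76, 3.17 and 2.06 in trametinib libraries and 1.53, 1.34 and 1.40 in vehicle libraries. Both coreceptor transcripts were thus higher relative to the receptor transcript in every trametinib library than in any vehicle library. These ratios were chosen after the values were seen and are given with no test.

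Among the adaptors, Ticam1 rose, Tirap fell, Myd88 was lower without passing in the unblocked edgeR test, and Ticam2 did not pass. Ticam1 (ENSMUSG00000047123, mm10 chromosome 17, 56269319 to 56276786, minus strand), the gene of TRIF, had 73.9, 66.1 and 64.7 CPM in trametinib libraries, against 47.8, 44.9 and 49.5 CPM in vehicle libraries. Every trametinib library lay above every vehicle library. The log2 fold change was 0.53 (SE 0.08, 95% interval 0.35 to 0.70, adjusted p 0.00134), a fold of 1.44, and 88.7% of tested genes had a lower log2 fold change. Ticam1 passed under all 13 alternatives, with adjusted p at most 0.00972.

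Myd88 (ENSMUSG00000032508, mm10 chromosome 9, 119335934 to 119341411, minus strand), the gene of the central adaptor, had 200.0, 198 and 185 CPM in trametinib libraries, against 239, 228 and 214 CPM in vehicle libraries. The groups did not overlap, and vehicle replicate 3 was the lowest vehicle library. The log2 fold change was −0.22 (SE 0.08, 95% interval −0.40 to −0.04), with an adjusted p of 0.0560. With the replicate block in edgeR Myd88 passed, at an adjusted p of 0.0152. It also passed with limma-voom (0.0439) and without vehicle replicate 3 (0.0182), and its 13 alternatives ran from 0.0152 to 0.191.

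Tirap (ENSMUSG00000032041, mm10 chromosome 9, 35184551 to 35200291, minus strand), whose product links MyD88 to the receptor, had 16.7, 17.8 and 19.3 CPM in trametinib libraries, against 24.7, 26.5 and 21.4 CPM in vehicle libraries. The groups did not overlap. Tirap fell by 0.43 on the log2 scale (SE 0.10, 95% interval −0.66 to −0.20, adjusted p 0.0116). Leaving out trametinib replicate 1 ended the call at an adjusted p of 0.0571. The other 12 alternatives passed, at 0.00152 to 0.0489, the highest without vehicle replicate 2.

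Ticam2 (ENSMUSG00000056130, chromosome 18), the gene of TRAM, had 37.5, 39.9 and 41.0 CPM in trametinib libraries, against 34.7, 33.5 and 40.1 CPM in vehicle libraries. Vehicle replicate 3 lay among the trametinib libraries, so the groups overlapped. The log2 fold change was 0.13 (95% interval −0.07 to 0.33, adjusted p 0.288), and without vehicle replicate 3 it was 0.21 with an adjusted p of 0.0539, the lowest of the 13 alternatives. Without vehicle replicate 2 it was 0.08 with an adjusted p of 0.619, the highest of them. Ticam2 shares 838 exonic bases, 14.5% of its exons, with the neighbouring gene Tmed7 on the same strand, and Myd88 shares 290 (11.3%) with Acaa1a on the opposite strand. Smaller parts of exons are shared with opposite-strand genes by Tirap (446 bases, 9.05%, with Gm39318) and Irak4 (395, 7.87%, with Twf1). The same holds for Irak3 (192, 5.22%, with Tmbim4) and Irak2 (196, 4.44%, with Gm43963). The sources used here do not say how reads in shared bases were counted, which makes the values of all these genes less certain. Tmed7 and Acaa1a did not pass themselves (Tmed7: log2 fold change 0.10, adjusted p 0.308; Acaa1a: log2 fold change 0.07, adjusted p 0.534).

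The ratio of Ticam1 to Myd88, in TPM, was 0.318, 0.287 and 0.301 in trametinib libraries and 0.172, 0.170 and 0.199 in vehicle libraries. The transcript of the TRIF adaptor thus stood at 0.302 ± 0.0156 of that of the MyD88 adaptor in trametinib libraries and at 0.180 ± 0.0165 of it in vehicle libraries (SD, n = 3 each). The ratio was picked after its members had been seen and has no test.

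The upstream sequences of the adaptor gene that rose, of the adaptor gene of the other branch and of the IRAK gene that fell most are shown as examples of a gene called higher, a gene that did not pass and a gene called lower. Each is the 250 bases before a RefSeq transcript start on GRCm38.p6, on the gene's strand, 5′ to 3′. The Ticam1 window is chr17:56276768-56277017, that of Myd88 chr9:119340019-119340268 and that of Irak3 chr10:120202131-120202380, all on the minus strand. The last 19 bases of the Ticam1 window and the last 23 of the Myd88 window lie in an exon that GENCODE annotates for the same gene. The Myd88 window lies within the GENCODE gene, whose outermost start is further upstream. Capitals mark matches, on either strand, to the motifs searched.
Ticam1: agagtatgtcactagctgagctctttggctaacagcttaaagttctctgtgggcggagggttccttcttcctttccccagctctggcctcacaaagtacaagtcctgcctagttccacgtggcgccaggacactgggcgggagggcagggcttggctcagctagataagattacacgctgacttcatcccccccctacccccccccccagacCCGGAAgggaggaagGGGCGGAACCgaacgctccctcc
Myd88: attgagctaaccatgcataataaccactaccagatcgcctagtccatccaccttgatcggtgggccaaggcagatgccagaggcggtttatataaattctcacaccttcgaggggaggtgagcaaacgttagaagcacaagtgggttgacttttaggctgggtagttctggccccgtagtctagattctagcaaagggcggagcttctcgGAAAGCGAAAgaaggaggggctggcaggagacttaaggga
Irak3: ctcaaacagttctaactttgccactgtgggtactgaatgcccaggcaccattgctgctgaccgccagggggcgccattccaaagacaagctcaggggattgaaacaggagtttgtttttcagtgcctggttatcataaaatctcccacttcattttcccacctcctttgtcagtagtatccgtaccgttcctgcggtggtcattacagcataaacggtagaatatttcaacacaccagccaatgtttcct
The motifs were CCGGAA for ETS factors, TGANTCA for AP-1, GCGNGGGCG for EGR factors, GGG and CC parted by any 5 bases as a loose form of the NF-kappaB site, and GAAA repeated after any 2 bases for the interferon response element. Ticam1 held an ETS match at 38 to 33 bases before the start and a loose NF-kappaB match at 23 to 14 bases before it. Myd88 held 1 interferon response element match at 40 to 31 bases before its start. The Irak3 window shown held no match, and the window of its other annotated start held the loose NF-kappaB pattern on both strands, in overlapping positions. Among 32851 RefSeq windows of the same length, 12% held the ETS motif, 6.75% AP-1, 4.7% EGR, 45.8% the loose NF-kappaB pattern and 2.98% the interferon response element. No window of Cd14, Ly96 or Ticam2 was used. Of the other genes whose windows were used, Irak4 held an ETS and a loose NF-kappaB match, Irak1 loose NF-kappaB matches and Irak2 none. Tirap held loose NF-kappaB matches before both of its starts and an ETS match before 1 of them. The matches describe these letters only.

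**Figure D2:**
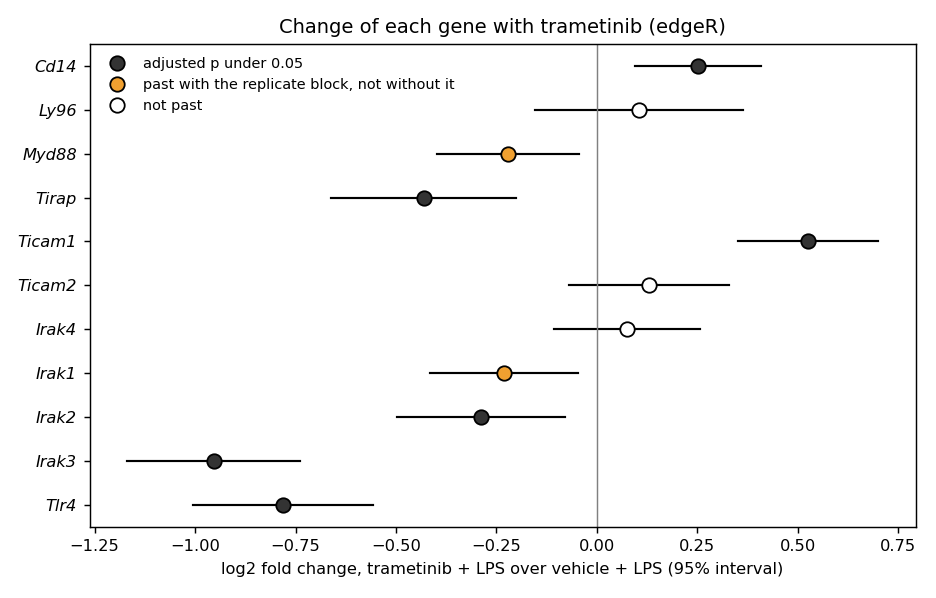
Log2 fold change of each gene with trametinib (x axis: trametinib + LPS over vehicle + LPS; points: edgeR estimates; lines: 95% intervals; rows: the 10 genes and Tlr4). Filled points passed an adjusted p of 0.05, orange points passed with the replicate block but not without it, and open points did not pass. Irak3 (−0.95) and Tlr4 (−0.78) lie furthest to the left and Ticam1 (0.53) furthest to the right.

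Of the IRAK genes, Irak3 and Irak2 fell, Irak1 was lower without passing in the unblocked edgeR test, and Irak4 did not pass. Irak3 (ENSMUSG00000020227, mm10 chromosome 10, 120141648 to 120202130, minus strand) had 91.9, 84.6 and 103 CPM in trametinib libraries, against 192, 185 and 165 CPM in vehicle libraries. The highest trametinib library stayed well below the lowest vehicle library. Irak3 fell by 0.95 on the log2 scale (SE 0.10, 95% interval −1.17 to −0.74, adjusted p 0.000344), a fold of 0.516. Of all tested genes 4.21% had a lower log2 fold change. The call held under all 13 alternatives, with the log2 fold change between −1.03 and −0.88 and an adjusted p of at most 0.00461.

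Irak2 (ENSMUSG00000060477, mm10 chromosome 6, 113638467 to 113695026, plus strand), a kinase family member that sustains MyD88 signalling after IRAK1 is used up, had 144, 131 and 132 CPM in trametinib libraries, against 179, 172 and 146 CPM in vehicle libraries. The groups came within 2 CPM of each other between trametinib replicate 1 and vehicle replicate 3 but did not overlap. Irak2 fell by 0.29 on the log2 scale (SE 0.09, 95% interval −0.50 to −0.08, adjusted p 0.0387). The call was lost without any single library other than vehicle replicate 3: the adjusted p was 0.0668, 0.117 and 0.0898 without trametinib replicates 1, 2 and 3 and 0.143 and 0.116 without vehicle replicates 1 and 2. It was 0.00259 without vehicle replicate 3, and the 13 alternatives lay between 0.00259 and 0.143.

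Irak1 (ENSMUSG00000031392, mm10 chromosome X, 74013914 to 74023918, minus strand), a kinase that IRAK4 activates, had 67.7, 61.8 and 76.0 CPM in trametinib libraries, against 82.5, 80.3 and 78.6 CPM in vehicle libraries. Trametinib replicate 3 lay close to the vehicle libraries and the groups did not overlap. The log2 fold change was −0.23 (SE 0.08, 95% interval −0.42 to −0.05, adjusted p 0.0551). It passed with the replicate block (0.0382), with no filter on low counts (0.0377), without trametinib replicate 3 (0.0147) and without vehicle replicate 3 (0.0393), and the 13 alternatives lay between 0.0147 and 0.198. Without trametinib replicate 3 the log2 fold change was −0.31, and without trametinib replicate 2 it was −0.16 (adjusted p 0.198).

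Irak4 (ENSMUSG00000059883, mm10 chromosome 15, 94543643 to 94581815, plus strand), the first kinase of the MyD88 complex, had 33.3, 36.5 and 32.8 CPM in trametinib libraries, against 31.7, 34.6 and 31.1 CPM in vehicle libraries. The groups overlapped, with replicate 2 the highest in each. The log2 fold change was 0.07 (SE 0.08, adjusted p 0.50), and the 95% interval of −0.11 to 0.26 spans folds of 0.929 to 1.19.

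Because the IRAK genes moved by different amounts, the make-up of their transcripts differed between the groups. The TPM of the 4 genes summed to 258, 228 and 291 in trametinib libraries and 406, 390 and 376 in vehicle libraries. Irak3 made up 31.8%, 31.4% and 34.8% of that sum in trametinib libraries, against 44.8%, 44.4% and 44.5% in vehicle libraries. Irak2 made up 39.8% ± 2.40 in trametinib libraries and 34.1% ± 1.04 in vehicle libraries (SD, n = 3 each). Irak1 made up 18.7% ± 1.13 in trametinib libraries and 15.5% ± 0.881 in vehicle libraries, and Irak4 8.83% ± 0.966 in trametinib libraries and 5.88% ± 0.412 in vehicle libraries. The groups did not overlap for any of the 4 shares, which add up to 100% and so cannot move independently. The exact permutation test, two-sided, gave p = 0.1 for each share and 0.1 after adjustment over the 4, the smallest p that 3 against 3 libraries allow.

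Irak3 was the most abundant IRAK transcript per length in vehicle libraries but not in trametinib libraries. In each vehicle library Irak3 lay above Irak2, at ratios of 1.29, 1.29 and 1.35, and in each trametinib library below it, at 0.764, 0.773 and 0.940. With the length of the longest transcript in place of all exons the order was the same in each library, at ratios of 0.657, 0.664 and 0.808 in trametinib libraries and 1.11, 1.11 and 1.16 in vehicle libraries.

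**Figure D3:**
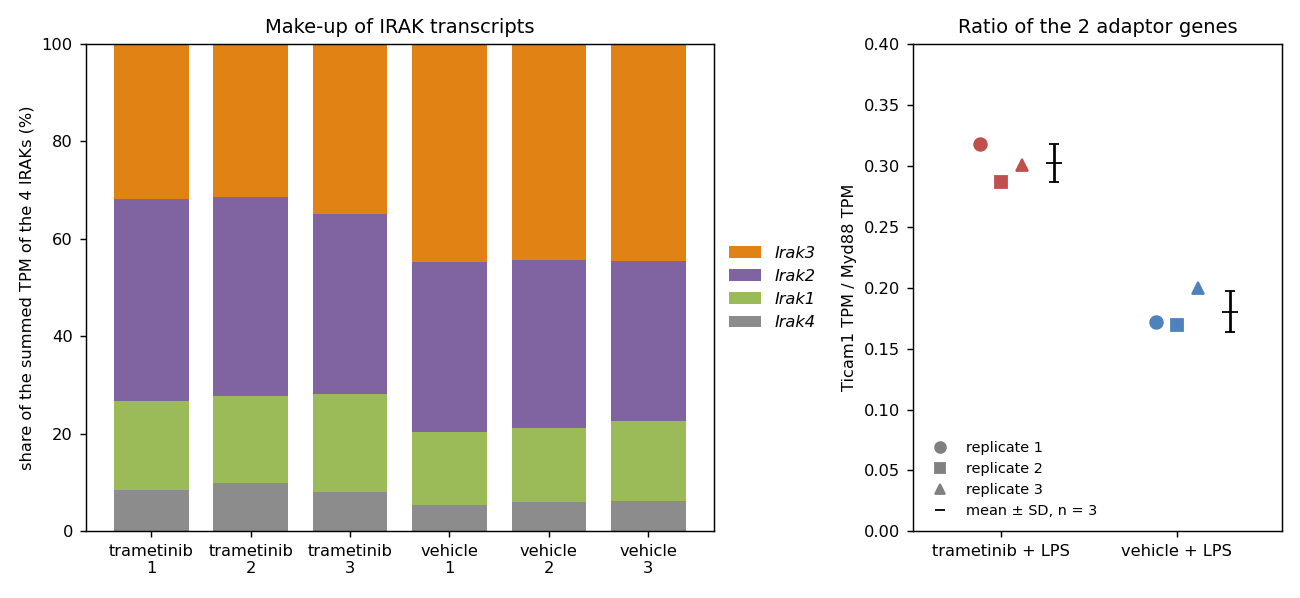
Left, share of each IRAK gene in the summed TPM of the 4 IRAK genes (y axis, percent) in each library, trametinib libraries left of vehicle libraries. Right, ratio of Ticam1 to Myd88 TPM in each library, with mean ± SD of 3. Irak3 takes 31.4% to 34.8% of the IRAK transcripts in trametinib libraries and 44.4% to 44.8% in vehicle libraries, and the adaptor ratio is 0.287 to 0.318 in trametinib libraries and 0.170 to 0.199 in vehicle libraries.

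Levels of the 10 genes spanned a wide range. In trametinib libraries Cd14 came first at 1509 ± 92.0 TPM and Myd88 next at 252 ± 10.3 TPM, followed by Irak2 (103 ± 8.47), Irak3 (85.1 ± 15.0), Ticam1 (76.0 ± 6.39), Ly96 (51.8 ± 3.64), Irak1 (48.7 ± 8.78), Ticam2 (22.8 ± 2.43), Irak4 (22.7 ± 0.912) and Tirap (12.2 ± 1.67). The ranges of Irak2 and Irak3, of Irak3 and Ticam1, of Ly96 and Irak1, and of Ticam2 and Irak4 overlapped there. In vehicle libraries the order was Cd14 (1348 ± 32.5 TPM), Myd88 (312 ± 9.47), Irak3 (174 ± 7.47), Irak2 (133 ± 8.93), Irak1 (60.5 ± 1.81), Ticam1 (56.3 ± 5.06), Ly96 (51.5 ± 1.49), Irak4 (23.0 ± 0.902), Ticam2 (22.2 ± 3.21) and Tirap (17.4 ± 1.16). Neighbours with overlapping ranges were Irak1 and Ticam1, Ticam1 and Ly96, and Irak4 and Ticam2. Ticam1 lay above Ly96 without overlap in trametinib libraries and overlapped it in vehicle libraries, and with the longest transcript as the length Ly96 came before Ticam1 in both groups, at 62.0 ± 4.71 against 59.3 ± 4.69 TPM in trametinib libraries and 61.2 ± 1.84 against 43.7 ± 3.86 TPM in vehicle libraries.

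The rest of the pathway was read from lists chosen with earlier results of these data known. Of all genes tested, 15.8% were called higher and 18.4% lower. These shares were 20.5% and 22.4% with the replicate block, and 19.3% and 21.4% without vehicle replicate 3. The counts below are not read as a property of any list. Of 11 genes of LPS recognition and receptor handling, all tested, 2 rose, 4 fell and 5 did not pass (median log2 fold change 0.05). Besides Tlr4, the genes with the smallest p were Rftn1, which encodes a lipid raft protein and had 64.1 ± 3.48 CPM in trametinib libraries and 98.1 ± 15.6 CPM in vehicle libraries (adjusted p 0.00395), and Cnpy3, a chaperone of Toll-like receptors, with 76.8 ± 5.61 CPM in trametinib libraries and 60.9 ± 3.27 CPM in vehicle libraries (adjusted p 0.00985). Ly86, the MD-1 gene related to Ly96, was the other riser, at 181 ± 39.7 CPM in trametinib libraries and 125 ± 10.9 CPM in vehicle libraries (adjusted p 0.0313). Without vehicle replicate 3 only 1 gene of this list rose.

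Of 18 genes of receptors that share these adaptors and of their trafficking factor Unc93b1, 14 were tested, of which 4 rose, 5 fell and 5 did not pass (median log2 fold change 0.02). Tlr9, a receptor for unmethylated DNA, rose to 162 ± 13.8 CPM in trametinib libraries, against 104 ± 8.26 CPM in vehicle libraries (adjusted p 0.00110). Il1rl2, the IL-36 receptor, fell to 3.74 ± 0.507 CPM in trametinib libraries, against 9.65 ± 2.51 CPM in vehicle libraries (adjusted p 0.00199), and Tlr1, a partner of TLR2, fell to 228 ± 17.6 CPM in trametinib libraries, against 303 ± 22.7 CPM in vehicle libraries (adjusted p 0.00826). With the replicate block, or without vehicle replicate 3, 4 rose and 6 fell.

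Downstream of the adaptors, 4 of 19 tested genes rose, 2 fell and 13 did not pass (median log2 fold change 0.10). Ube2n, an enzyme that makes the ubiquitin chains used by TRAF6, fell to 12.0 ± 0.536 CPM in trametinib libraries, against 16.7 ± 1.62 CPM in vehicle libraries (adjusted p 0.00723). Ikbke, a kinase related to TBK1, fell to 359 ± 21.6 CPM in trametinib libraries, against 453 ± 16.4 CPM in vehicle libraries (adjusted p 0.0102). Map3k8, the kinase that activates MEK after LPS, rose with a log2 fold change of 0.34 (adjusted p 0.00396). Traf6, the ligase next after the IRAKs, rose with a log2 fold change of 0.20 (adjusted p 0.0381), and Tbk1 and Irf3, the next steps after TRIF, did not pass (Tbk1: log2 fold change 0.12, adjusted p 0.234; Irf3: log2 fold change −0.07, adjusted p 0.525). Traf6, Tbk1 and Irf3 were picked for their place in the pathway after their values were seen. The other genes that rose were Ikbkb (log2 fold change 0.505, adjusted p 0.0141) and Irf5 (log2 fold change 0.322, adjusted p 0.0153). The counts were 5 higher and 2 lower with the replicate block, and 6 higher and 2 lower without vehicle replicate 3.

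Of 14 other genes listed as brakes on Toll-like receptor signalling, 12 were tested, of which 1 rose, 5 fell and 6 did not pass (median log2 fold change −0.16). Lilrb4a, an inhibitory receptor with a close copy in the genome, fell to 168 ± 14.7 CPM in trametinib libraries, against 311 ± 14.7 CPM in vehicle libraries (adjusted p 0.000342). Tnfaip3, which encodes the ubiquitin-editing enzyme A20, fell to 378 ± 16.4 CPM in trametinib libraries, against 540.2 ± 23.6 CPM in vehicle libraries (adjusted p 0.00134). Nlrx1, a mitochondrial protein of the NLR family, fell to 8.54 ± 0.442 CPM in trametinib libraries, against 13.0 ± 0.733 CPM in vehicle libraries (adjusted p 0.00233). Trim30a, the riser of this list, had 1091 ± 58.1 CPM in trametinib libraries and 885 ± 27.8 CPM in vehicle libraries (adjusted p 0.0133). The fall of Irak3 (−0.95 on the log2 scale) was of like size to that of Lilrb4a (−0.89). With the replicate block 3 genes of this list rose and 6 fell, and without vehicle replicate 3, 2 rose and 6 fell.

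**Figure D4:**
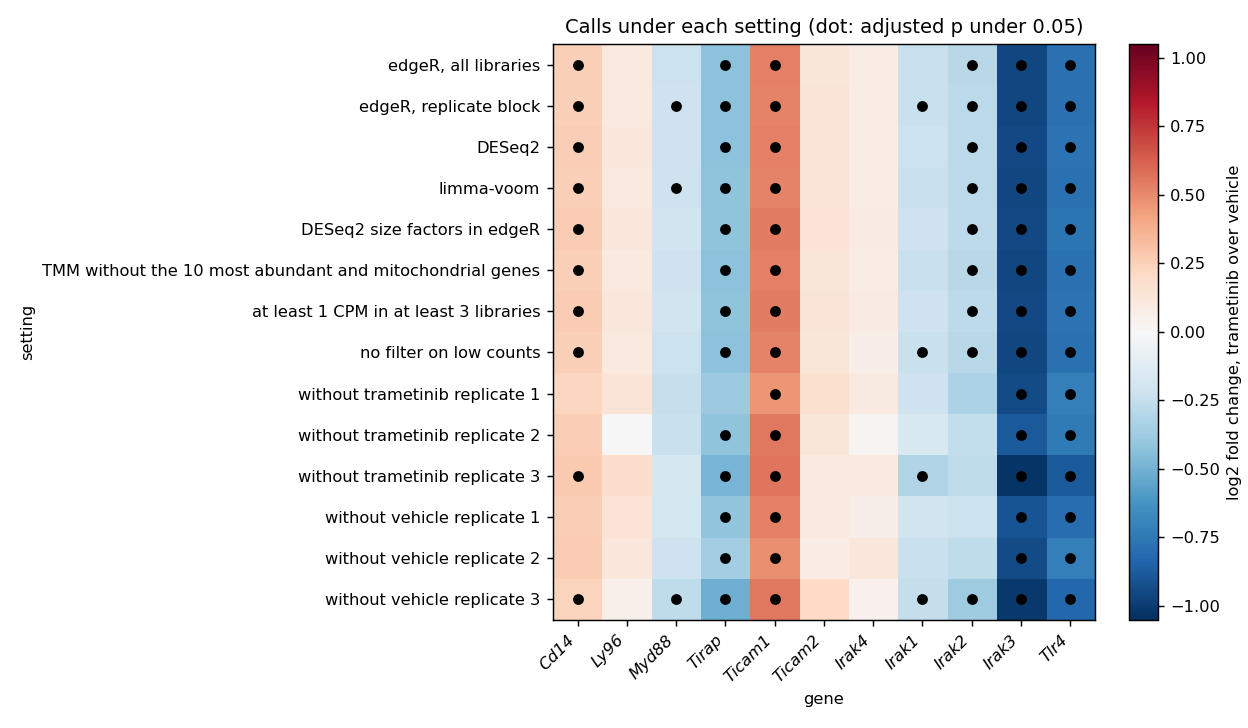
Log2 fold change (colour, trametinib over vehicle) and call (black dot, adjusted p under 0.05) of each gene (x axis) under each setting (y axis). Ticam1, Irak3 and Tlr4 carry a dot in every row, Tirap in all but the row without trametinib replicate 1, Cd14 and Irak2 lose it in several rows without a library, and Ly96, Ticam2 and Irak4 have none.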

How the data were processed

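Total RNA depleted of ribosomal RNA was sequenced, and the authors deposited 1 table of raw counts, whole reads per gene and library, without normalization. The submitters' processing notes name the mm10 build, the aligner HISAT2 2.1.0, the counter featureCounts 1.6.4, R 3.6.0 and DESeq2 1.24.0. The annotation, the strand setting and the handling of reads shared by genes are not given there. From the deposited counts, 310 repeated rows of 205 identifiers, identical to the first, were dropped. Of the 25044 genes left, 25033 were found in GENCODE release M21. Groups were read from the sample descriptions. The main test was edgeR 4.0.16, quasi-likelihood and robust, after filterByExpr and TMM scaling, with group as the only term, Benjamini-Hochberg adjustment over 11286 genes and a threshold of 0.05. SE was taken as the log2 fold change over the root of F, without its sign, and 95% intervals use the t distribution. CPM are counts per TMM-scaled library size, and TPM use the summed length of a gene's exons. Alternatives were DESeq2 1.42.0, limma-voom (limma 3.58.1), DESeq2 size factors, TMM without the 10 most abundant and mitochondrial genes, no filter, at least 1 CPM in at least 3 libraries, a replicate block, and each library left out singly. The edgeR script was tested on simulated data.

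The members and lists were chosen with earlier results of these data known. Named genes are the 10 members, Tlr4, and from each pathway list the 3 lowest p values past the threshold; any other is named after its values were seen. Across genes, deviations from the group means correlated at 0.339, 0.393 and 0.285 between libraries of the same replicate number. Between others they correlated at −0.223 to −0.0724. Deviations within a group cancel, so a positive value for like numbers by itself pulls the others down. The numbers were therefore taken to pair the libraries, on this evidence alone, as the labels do not speak of it. The main test, with its SE and intervals, leaves this pairing out. The blocked result is given for the members, the lists and the markers where it changed a call. RefSeq windows were used for 7 of the 10 genes. A planned comparison of the IRAK proteins was not run. R 4.3.3, Python 3.11.15, pandas 2.3.3, SciPy 1.17.1 and matplotlib 3.10.9 were used.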

Additional observations from a re-analysis of the deposited data

How the results depend on the processing

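Some calls of smaller changes were lost when a single library was left out, in fits that also had fewer libraries. Members called higher numbered 1 to 2 and members called lower 1 to 5 when each library was left out in turn, beside 2 and 3 in the full comparison, and all genes called numbered 2428 to 4663, beside 3869. With the replicate block, members called lower numbered 5, and the block lost no call among the 10 genes. Over 13 alternatives for the 10 genes and Tlr4, 143 values in all, 125 kept their direction and their side of the threshold, 10 lost the call, 7 gained it and 1 changed sign: Ly96, whose log2 fold change ran from −0.00253 (without trametinib replicate 2) to 0.184 when libraries were left out. Ordering the genes by mean TPM over all 6 libraries with the longest transcript in place of all exons changed the rank of 4 genes (Irak2 with Irak3, Ticam1 with Ly96), though within each group Irak2 and Irak3 kept their order, and leaving out 1 library changed 0 to 2 (Irak4 with Ticam2). The shares of the IRAK genes kept their direction in every alternative run. How far depth limits the values was not separated from the spread between libraries.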
